A study of Mus musculus with 18 samples.

Results

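Inguinal fat, a white fat depot under the skin, was compared between mice carrying a lung tumour and control mice at the later stage of the study, which the labels call cachexia. All mice were male C57BL/6J animals whose age the labels do not give. The LLC group (n = 5) had received Lewis lung carcinoma cells, a mouse lung tumour line, under the skin, and the PBS group (n = 4) had received the buffer phosphate-buffered saline by the same route. Both were sampled 21 days after injection, and no other allele or agent is named for either group. The comparison uses 9 of the 18 libraries of the series. The remaining 9 were taken 7 days after injection and serve here only as a reference for levels. All genes were considered: of the 21899 gene IDs in the table, 13564 had enough counts to be tested, and 3970 had no count in any of the 9 libraries. Sample titles carry a number within each group and give no further origin, so the spread behind the p-values may be technical in part. No body or fat weights are among the values used here, so the cachexia label itself was not checked.

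White fat stores triglyceride in large adipocytes and releases it as fatty acids through lipolysis, a pathway driven by catecholamines and restrained by insulin. The tissue around the adipocytes holds progenitors, fibroblasts, macrophages, mast cells, nerves and vessels. In cachexia, tumour-bearing animals lose fat and muscle. Fat loss in such models has been linked to raised lipolysis, reduced lipid synthesis, heat-producing (beige) adipocytes and inflammatory signals. In a bulk sample, fewer cells of a type and less RNA per cell of that type cannot be told apart, and all changes below are shares of the RNA in the sample.

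The labelled tissue was checked against defining markers of fat cells, which were abundant in every library. Adipoq, the fat cell hormone adiponectin, measured 2523, 2767, 2748 and 2314 CPM (counts scaled to library size, with TMM factors) in PBS libraries 1 to 4 and 1183, 2324, 1831, 3144 and 2803 CPM in LLC libraries 1 to 5. Values are listed in this library order throughout. Fabp4, the fatty acid binding protein of adipocytes, lay between 8958 to 13206 CPM in PBS and between 5334 to 13890.3 CPM in LLC. Both ranges overlapped between groups. Adipoq (log2 difference -0.20 ± 0.28, SE; edgeR adjusted p = 0.686) and Fabp4 (-0.28 ± 0.32, adjusted p = 0.605) did not pass.

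Total counts ran from 14934699 to 17844344 per library, and 15516 to 16232 genes were detected. Mitochondrially encoded genes took from 8.45% (LLC 1) to 20.8% (LLC 4) of counts. PBS 4 stood apart from the other controls: its mean rank correlation was 0.949 with its own group, against 0.979 with the PBS libraries and 0.981 with the LLC libraries of day 7. PBS 1, 2 and 3 had 0.965 to 0.974 with their own group and 0.947 to 0.954 with the day 7 PBS libraries. Each of the 5 LLC libraries also correlated more with the day 7 LLC libraries (0.941 to 0.975) than with its own group (0.934 to 0.956). The labels do not say whether PBS 4 was handled differently. On the first principal component, 40.7% of the variance, PBS 1 to 3 lay at -66.9, -56.1 and -49.1 and PBS 4 at 20.3, while the LLC libraries lay at 62.9, 5.54, 69.1, 16.9 and -2.62. Only PBS 4 of the controls therefore sat among the tumour libraries. LLC 3 stood apart in B cell genes, LLC 1 in cell cycle genes, and skeletal muscle genes were high in PBS 1 and 2 and LLC 2 and 5. Each is described beside the results it touches.

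Tested on the counts of all 9 libraries, 12 genes passed an adjusted p of 0.05 in edgeR's quasi-likelihood test: 9 were higher in LLC, 0.0664% of those tested, and 3 were lower, 0.0221%. At an unadjusted p under 0.05 there were 3164 genes, and at an adjusted p under 0.1 there were 333 higher (2.46%) and 430 lower (3.17%). Which genes passed depended on single control libraries. Without PBS 1 no gene passed (smallest adjusted p = 0.053; 2107 genes at an unadjusted p under 0.05), and without PBS 2 or PBS 3 only 2 did. Without PBS 4 there were 798 genes higher (5.81%) and 479 lower (3.49%), and without PBS 4, LLC 1 and LLC 3 together 725 (5.41%) and 237 (1.77%). DESeq2, run on the 9 libraries, called 786 genes higher (5.35%) and 738 lower (5.02%). All 12 genes were also called by DESeq2, without PBS 4 and without those 3 libraries, and of the 1277 genes called without PBS 4 and the 962 called without the 3, 805 were shared and kept their direction. Tests on log2(TPM + 1) with limma called 36 genes higher (0.263%) and 1 lower (0.0073%), on a scale where the median of all genes lay at 0.14 instead of 0.02.

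**Figure D1:**
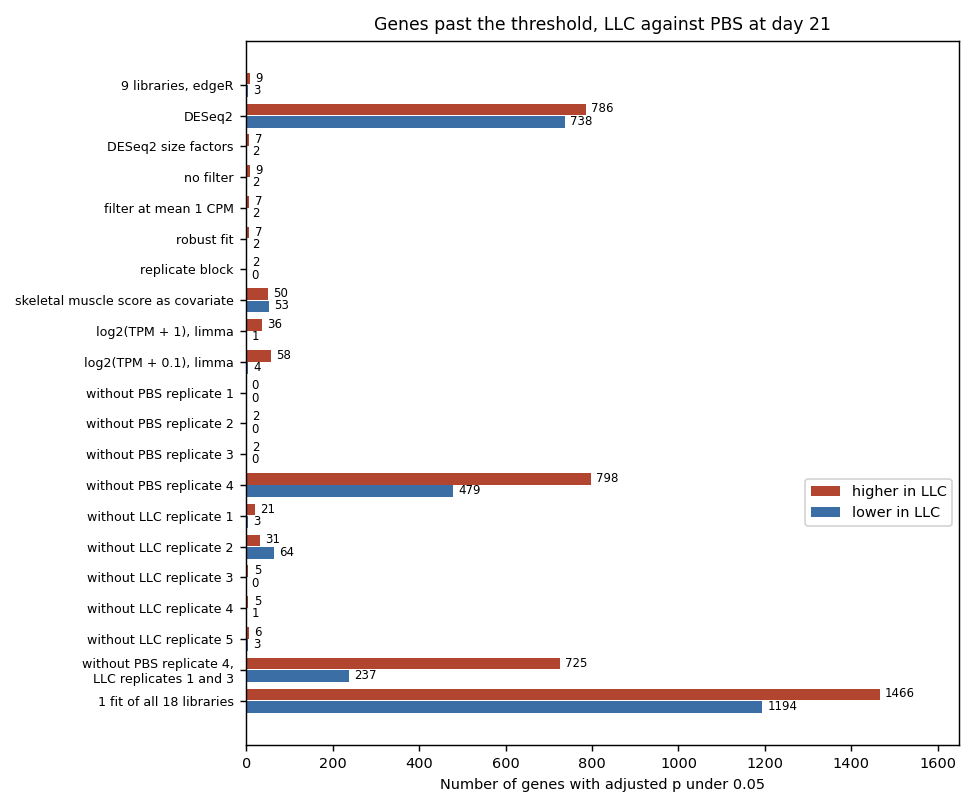
Number of genes past an adjusted p of 0.05 (horizontal axis, linear from 0) in each fit (vertical axis), with genes higher in LLC in red and lower in blue. The 9 libraries together gave 9 and 3 genes, and the fit without PBS replicate 4 gave 798 and 479.

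For the genes called without PBS 4, the level of PBS 4 was set beside the others, as a description, since the fit that chose them had left it out. Among the 798 higher genes, PBS 4 reached the range of the LLC libraries for 551 (69.0%) and stayed within the range of PBS 1 to 3, or beyond it, for 40 (5.01%). Among the 479 lower genes it reached the LLC range for 180 (37.6%). In the median gene PBS 4 lay 0.92 of the way from the mean of PBS 1 to 3 to the LLC mean on the higher side, and 0.53 of the way on the lower side. The results below therefore give each gene in all 9 libraries and without PBS 4. "Rose" and "fell" are used only where all 9 libraries passed.

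In the edgeR fit of all 9 libraries, mast cell genes gave the most called members of any list. Without PBS 4 more members passed among resident macrophage genes (13) and progenitor and fibroblast genes (11). Mast cells are tissue immune cells that store proteases, histamine and heparin in granules. Of 18 listed markers, 15 had enough counts to be tested: all 15 were higher in LLC, 4 rose in the 9 libraries (against 0.0664% of all genes called higher) and 9 passed without PBS 4 (against 5.81%). Their median log2 difference was 2.49, and 2.74 without PBS 4, beside a median of 0.02 over all genes in both fits. The groups did not overlap for 9 of the 15, as for 4.47% of all genes on the higher side. Summed over the list, levels were 46.4 to 78.2 CPM in PBS and 139 to 227 CPM in LLC. Members near 0 in PBS, such as Fcer1a, Cyp11a1 and Mrgprb2 (PBS means 0.0927, 0.17 and 0.245 CPM), passed the count filter through their LLC counts. The shared direction was therefore in part set by that filter.

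Cma1, mast cell chymase (ENSMUSG00000022225, GRCm38 chr14:55941451-55944675), measured 0.599, 0.814, 0.843 and 1.53 CPM in PBS and 19.99, 14.5, 14.5, 23.3 and 10.3 CPM in LLC. Even the lowest tumour library was far above PBS 4, the highest control. The means were 0.945 ± 0.403 (SD, n = 4) and 16.5 ± 5.13 CPM (n = 5), 17.5-fold apart, with a log2 difference of 4.12 ± 0.36 (SE; edgeR adjusted p = 0.00895). Cpa3, mast cell carboxypeptidase (chr3:20215620-20242181), measured 0.718, 0.188, 0.778 and 1.099 CPM in PBS and 18.4, 11.9, 18.7, 20.7 and 11.7 CPM in LLC. It too separated the groups fully, by 4.53 ± 0.44 (adjusted p = 0.011). Mcpt4, a chymase of connective tissue mast cells (chr14:56059629-56062313), measured 0.838, 1.31, 0.259 and 2.02 and 27.1, 18.96, 28.8, 28.5 and 17.5 CPM, a difference of 4.44 ± 0.48 (adjusted p = 0.0167). Tpsb2, a tryptase (chr17:25366305-25369098), measured 1.32, 0.563, 0.648 and 2.32 and 16.8, 15.4, 25.9, 34.6 and 15.1 CPM, a difference of 4.14 ± 0.49 (adjusted p = 0.0169). In all 4 genes PBS 4 had the highest control value. Hdc, which makes histamine from histidine, measured 0.838, 1.38, 1.17 and 2.02 and 5.55, 4.97, 6.19, 12.8 and 6.09 CPM and just missed the threshold (2.39 ± 0.38, adjusted p = 0.0526; 0.00811 without PBS 4). RNA-seq reads of related proteases can be exchanged between genes of the chymase and tryptase families, so the single values are less certain than their sum.

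For Cma1 and Cpa3 the controls of the same day were low beside both groups of day 7. On the scale of all 18 libraries, Cma1 lay between 7.99 to 15.03 CPM in day 7 PBS, 7.67 to 17.98 in day 7 LLC, 0.602 to 1.54 in day 21 PBS and 10.5 to 23.9 in day 21 LLC. For Cpa3 these ranges were 6.55 to 15.4, 8.01 to 18.03, 0.189 to 1.11 and 11.9 to 21.3 CPM. For both genes the day 21 tumour libraries overlapped the day 7 ranges, with their highest values above them. The day 21 PBS libraries all lay below those ranges. Hdc differed, at 1.29 to 2.46 CPM in day 7 PBS, 1.73 to 5.55 in day 7 LLC, 0.843 to 2.03 in day 21 PBS and 5.09 to 13.1 in day 21 LLC. Its day 21 controls overlapped the day 7 controls, and its day 21 tumour libraries reached beyond both day 7 groups.

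The 250 bases before the RefSeq start of these protease genes are shown because the genes moved together, with GATA letters marked, the motif family of the GATA factors that act in mast cells. The letters AGATAA and TGATAA, searched on both strands, are in capitals.
Cma1 (GRCm38.p6 chr14:55944676-55944925, minus strand): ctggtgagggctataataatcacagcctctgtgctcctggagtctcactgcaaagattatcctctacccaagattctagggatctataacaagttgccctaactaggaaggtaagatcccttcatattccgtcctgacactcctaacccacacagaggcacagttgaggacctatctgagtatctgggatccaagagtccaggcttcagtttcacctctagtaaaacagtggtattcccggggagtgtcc
Mcpt4 (GRCm38.p6 chr14:56062311-56062560, minus strand): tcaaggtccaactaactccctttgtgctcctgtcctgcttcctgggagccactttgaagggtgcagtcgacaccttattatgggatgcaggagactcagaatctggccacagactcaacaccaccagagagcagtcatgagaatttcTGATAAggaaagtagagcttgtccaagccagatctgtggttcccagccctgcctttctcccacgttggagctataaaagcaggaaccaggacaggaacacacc
Cpa3 (GRCm38.p6 chr3:20242182-20242431, minus strand): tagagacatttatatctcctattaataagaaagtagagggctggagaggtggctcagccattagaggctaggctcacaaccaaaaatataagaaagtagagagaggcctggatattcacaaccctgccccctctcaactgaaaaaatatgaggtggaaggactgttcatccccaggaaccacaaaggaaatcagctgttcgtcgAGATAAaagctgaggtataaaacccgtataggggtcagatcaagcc
Mcpt4 holds TGATAA from 103 to 98 bases before the start and Cpa3 holds AGATAA from 46 to 41 bases before it, both on the strand shown, while the Cma1 window holds neither. Of 32851 RefSeq windows of this length, 5452 (16.6%) hold at least 1 of the motifs, and of 23 windows of the mast cell list 11 (47.8%) do. A match describes the letters and is no evidence of a bound factor.

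**Figure D2:**
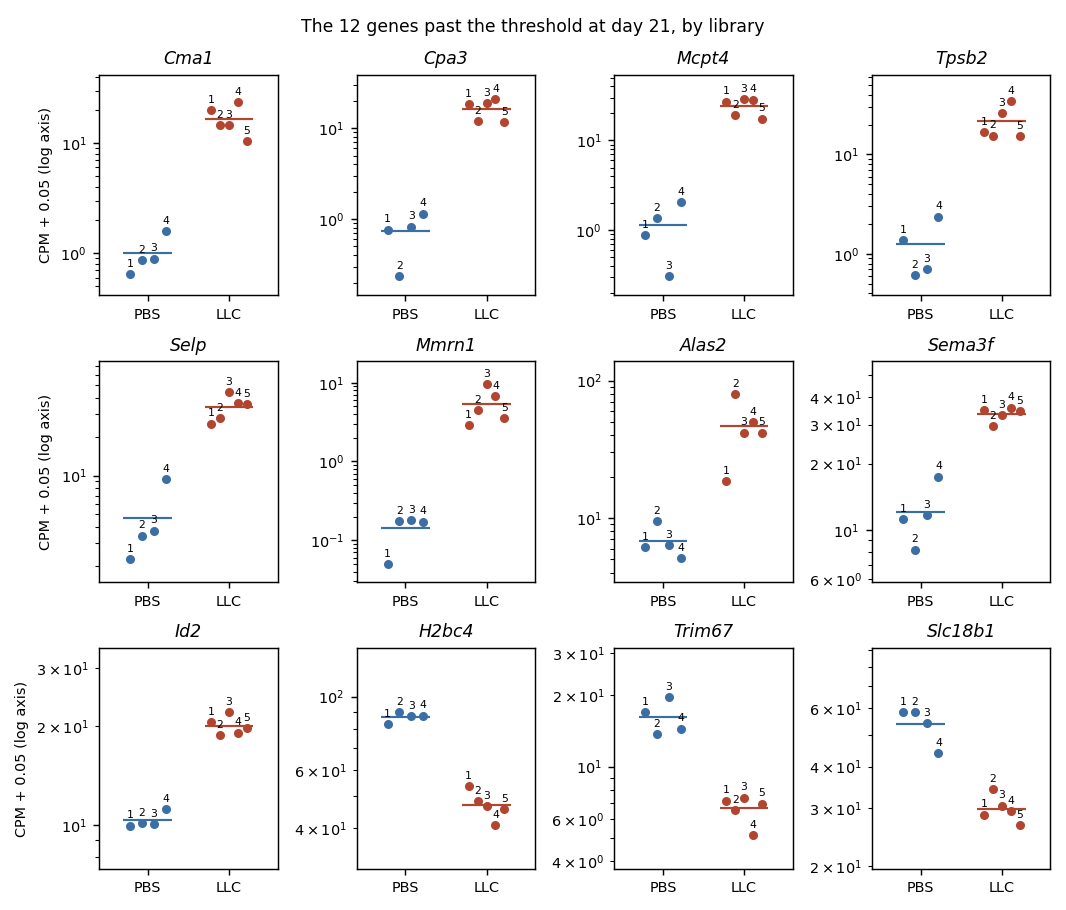
Levels of the 12 genes past the threshold in CPM + 0.05 (log axis), by group, with each point numbered by its library and lines at the group means. All 12 genes separate the groups, and PBS 4 is the control nearest to LLC in genes such as Selp and Sema3f but not in Alas2.

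Genes of blood and lymph vessels also held called members. Selp, P-selectin, which lets leukocytes roll on activated vessel walls (chr1:164115264-164150026), measured 2.21, 3.38, 3.696 and 9.34 CPM in PBS and 25.2, 27.8, 43.9, 36.2 and 35.5 CPM in LLC. Every tumour library lay above every control, and PBS 4 was the highest control. The difference was 2.85 ± 0.41 (adjusted p = 0.0489; 3.44 ± 0.27 and 6.26e-04 without PBS 4). Of 16 blood endothelial markers 14 were higher, 1 rose (against 0.0664% of all genes) and 7 passed without PBS 4 (against 5.81%). The median was 0.55, and 0.59 without PBS 4. Vwf, the von Willebrand clotting factor, measured 21.8, 20.5, 17.6 and 60.8 and 98.4, 140.3, 193, 206 and 153 CPM (2.39 ± 0.41, adjusted p = 0.0526; 7.28e-04 without PBS 4). Plvap, which forms the diaphragms of fenestrated vessels, measured 25.02, 24.6, 22.96 and 85.9 and 165, 147, 222, 194 and 170.4 CPM (2.18 ± 0.42, adjusted p = 0.0634; 4.8e-04 without PBS 4). Both genes were without overlap, and PBS 4 held the highest control value of each. Pecam1, the endothelial marker CD31, measured 147, 126, 186 and 224 and 244, 332, 457, 398 and 344 CPM (1.06 ± 0.22, adjusted p = 0.0663; 0.0181 without PBS 4). Other general endothelial markers did not follow it. Cdh5 (0.15, adjusted p = 0.562), Kdr (0.09, adjusted p = 0.756) and Tie1 (0.08, adjusted p = 0.702) overlapped between groups and passed in neither fit. Cldn5 (-0.33) and Robo4 (-0.25) were lower, also without passing. Tek, the angiopoietin receptor, measured 47.1, 39.99, 60.7 and 62.4 and 74.2, 96.9, 111, 103 and 102 CPM, and Sele, E-selectin, 0.239, 0.188, 0.389 and 1.22 and 2.27, 2.74, 3.27, 3.82 and 5.18 CPM. Their adjusted p were 0.0634 and 0.0638 in 9 libraries and 0.0154 and 0.00306 without PBS 4. Summed blood endothelial levels were 943 to 1344 CPM in PBS and 1419 to 2111 CPM in LLC.

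Mmrn1, multimerin 1, a large secreted protein of platelets and lymphatic endothelium (chr6:60924976-60989378), measured 0, 0.125, 0.1297 and 0.122 CPM in PBS and 2.85, 4.46, 9.51, 6.66 and 3.47 CPM in LLC. It was nearly absent from the controls and present in all 5 tumour libraries. The fitted difference of 5.74 ± 0.66 (adjusted p = 0.0169) rests on these near-zero controls and is not a measured fold. Of 10 lymphatic markers 9 were higher, 1 rose (against 0.0664% of all genes) and 4 passed without PBS 4 (against 5.81%), with a median of 1.85, or 3.41 without PBS 4. Prox1, the lymphatic identity factor, measured 0, 0.0626, 0 and 0.427 and 0.773, 1.1996, 4.78, 1.54 and 0.786 CPM (adjusted p = 0.0984; 0.0189 without PBS 4). Pdpn, podoplanin, which fibroblasts also make, measured 2.63, 4.63, 3.11 and 16.3 and 36.8, 20.9, 21.6, 27.3 and 16.7 CPM (1.89 ± 0.54, adjusted p = 0.103; 0.00188 without PBS 4). The chemokine Ccl21a measured 0, 0, 0.195 and 0.366 and 0.338, 3.48, 70.2, 3.08 and 8.85 CPM, and was highest in LLC 3, the library high in B cell genes. It did not pass (adjusted p = 0.0858). Summed lymphatic levels were 66.6 to 280.5 CPM in PBS and 205 to 369 CPM in LLC, and overlapped.

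Blood cell genes were higher as well. Alas2, the haem synthesis enzyme of red cell precursors and reticulocytes (chrX:150547375-150570638), measured 6.11, 9.51, 6.29 and 5.07 CPM in PBS and 18.6, 80.1, 41.8, 49.997 and 41.8 CPM in LLC. All tumour libraries were above all controls, LLC 1 the least, and PBS 4 was the lowest control. The difference was 2.78 ± 0.39 (adjusted p = 0.0489). All 7 red cell genes tested were higher, 1 rose (against 0.0664% of all genes), 7 passed without PBS 4 (against 5.81%) and 6 did not overlap (against 4.47%). The list's median was 2.62. Hbb-bs, adult beta globin, measured 163, 319.9, 197 and 133 and 488, 1685, 1103, 1676 and 1295 CPM (2.62 ± 0.41, adjusted p = 0.0526; 0.0149 without PBS 4), and shares reads with Hbb-bt. Summed red cell levels were 353 to 857 CPM in PBS and 1249 to 4353 CPM in LLC.

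Neutrophil genes were low throughout. Of 13 listed, 6 were tested and all 6 were higher. None passed in 9 libraries and 1 passed without PBS 4 (against 5.81% of all genes). Cxcr2, S100a8 and S100a9, with PBS means of 0.125, 0.501 and 0.373 CPM, passed the count filter through their LLC counts. The shared direction was therefore in part set by that filter. Mmp9, a gelatinase stored in neutrophil granules and made by other cells too, measured 8.26, 7.38, 4.28 and 5.25 and 18.9, 15.5, 21.8, 14.8 and 15.99 CPM (1.47 ± 0.23, adjusted p = 0.0526; 0.0143 without PBS 4). S100a9, a calprotectin subunit, measured 0.0599, 1.001, 0.0648 and 0.366 and 1.21, 9.31, 4.49, 23.98 and 5.83 CPM (4.56 ± 1.05, adjusted p = 0.0751). Both genes were without overlap. Summed levels were 6.29 to 14.9 CPM in PBS and 30.3 to 76.9 CPM in LLC.

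Macrophages, progenitors and matrix genes turned on PBS 4. A list score, the mean of the members' log2 CPM relative to their mean over the 9 libraries, shows it for resident macrophage genes: it was -1.36, -1.23, -1.84 and 1.10 in PBS and 1.52, 0.86, 0.56, 0.57 and -0.18 in LLC. PBS 4 thus exceeded all tumour libraries but LLC 1. All 20 markers were higher in LLC and none passed in 9 libraries, while 13 passed without PBS 4 (against 5.81% of all genes), with a median of 0.98 and 2.18. Cd163, a scavenger receptor for haemoglobin, measured 24.1, 24.3, 18.9 and 96.98 and 146, 128, 90.98, 127 and 102 CPM. Its adjusted p was 0.113 in 9 libraries and 6.75e-04 without PBS 4. Csf1r, the receptor that macrophages need to survive, measured 54.2, 47.2, 31.6 and 221 and 246, 192, 199, 142 and 105 CPM (adjusted p = 0.293 and 0.00811). Ccr2, the receptor of monocytes for their chemokine, measured 11.7, 13.02, 11.5 and 33.6 and 63.7, 46.5, 36.5, 33.4 and 39.6 CPM (adjusted p = 0.0926 and 0.00276). PBS 4 overlapped the tumour range in all 3. Adgre1, the macrophage marker F4/80, measured 12.7, 10.6, 9.34 and 75.4 and 107, 50.7, 28.04, 29.7 and 17.5 CPM and passed in neither fit (0.531 and 0.0536).

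Among 14 lipid-associated macrophage genes, none passed in 9 libraries, and 1 passed higher and 1 lower without PBS 4 (against 5.81% and 3.49% of all genes). The lower one, Fabp5, a fatty acid binding protein that adipocytes also make, measured 162, 200.1, 269 and 173 and 99.5, 139, 62.5, 69.3 and 70.2 CPM and did not overlap (-1.19 ± 0.26, adjusted p = 0.0691; 0.0301 without PBS 4).

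Of 20 progenitor and fibroblast genes 15 were higher, none passed in 9 libraries and 11 passed without PBS 4 (against 5.81% of all genes), with a median of 0.71 and 1.23. Dcn, the collagen-binding proteoglycan decorin, measured 449, 457, 367 and 1182 and 1308, 1190.3, 1163, 1578 and 1157 CPM. PBS 4 alone of the controls lay within the tumour range, and the adjusted p was 0.123 with it and 0.00297 without it. Pdgfra, the receptor that marks fat progenitors, measured 45.01, 42.99, 33.1 and 102 and 134, 103, 95.1, 129 and 89.1 CPM (adjusted p = 0.119 and 0.00363). Has1, a hyaluronan synthase, did not overlap, at 0.1197, 0.563, 0.195 and 0.489 and 1.64, 2.17, 3.32, 4.56 and 5.37 CPM (3.29 ± 0.56, adjusted p = 0.0526; 0.0167 without PBS 4). Icam1, an adhesion molecule that inflammatory signals induce, measured 10.4, 11.4, 12.3 and 20.8 and 29.1, 26.3, 54.9, 25.2 and 29.2 CPM, also without overlap (1.27 ± 0.29, adjusted p = 0.0751; 0.0147 without PBS 4).

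The extracellular matrix list had 11 of 26 genes higher, none past the threshold in 9 libraries and 7 higher without PBS 4 (against 5.81% of all genes). Its median changed sign, from -0.16 to 0.53 without PBS 4. Fbn1, the microfibril protein fibrillin 1, measured 29.8, 32.4, 18.5 and 231 and 306, 165, 260.1, 233 and 142 CPM (adjusted p = 0.235 and 0.00141). Timp2, a metalloproteinase inhibitor, measured 168, 185, 108 and 844 and 681, 695, 822, 583 and 617 CPM, and PBS 4 exceeded every tumour library (adjusted p = 0.27 and 0.00142). Thbs2, thrombospondin 2, measured 33.1, 40.6, 31.3 and 113 and 122, 84.9, 151, 113 and 76.3 CPM (adjusted p = 0.176 and 0.00612). The summed list was 8051 to 28985 CPM in PBS and 4828 to 26649 CPM in LLC. On the 18-library scale Dcn lay at 1341 to 1984 CPM in day 7 PBS, 856 to 1606 in day 7 LLC, 369 to 1189 in day 21 PBS and 1178 to 1621 in day 21 LLC.

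**Figure D3:**
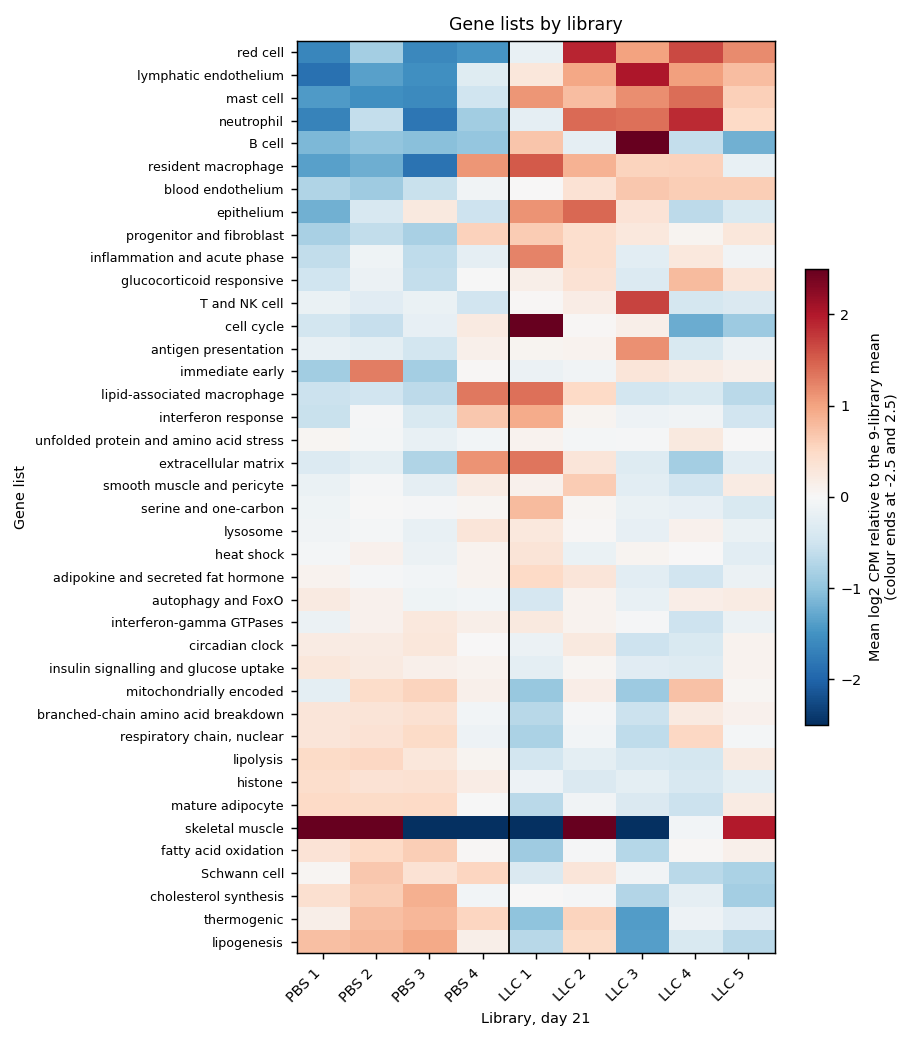
Mean log2 CPM of the members of each gene list (rows, ordered by the difference of group means) relative to their mean over the 9 libraries, by library (columns), with red above and blue below that mean and a line between PBS and LLC. The mast cell row is blue in all 4 PBS and red in all 5 LLC libraries, while macrophage, progenitor and matrix rows are red in PBS 4 as in LLC 1.

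Lymphocyte, cell cycle, epithelial and muscle genes followed single libraries. B cell genes had a list score of 5.46 in LLC 3 and between -1.21 and 0.69 in the other 8 libraries. Cd79a, a subunit of the B cell receptor, measured 0.838, 1.31, 1.04 and 0.0611 and 1.11, 0.857, 325, 1.11 and 0.524 CPM and did not pass (adjusted p = 0.159). The median of the 8 B cell genes tested was 5.32, and 0.47 without LLC 3. For 16 T and NK cell genes it was 0.87, and 0.10 without LLC 3. Of either list none passed, with or without PBS 4. Jchain, the joining chain of secreted antibodies, differed from the other B cell genes in that it was spread over the tumour libraries, at 1.02, 0.626, 0.778 and 0.611 and 18.98, 1.999, 5.997, 2.65 and 4.33 CPM, without overlap (3.15 ± 0.70, adjusted p = 0.0748; 0.0508 without PBS 4, 0.0411 without PBS 4, LLC 1 and LLC 3).

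All 29 cell cycle genes had a positive log2 difference, with a median of 1.53 that became -0.19 without LLC 1. Mki67, a marker of dividing cells, measured 7.36, 5.88, 9.598 and 11.3 and 109, 8.63, 9.65, 0.986 and 3.28 CPM: LLC 1 was high and LLC 4 and 5 were below all controls (adjusted p = 0.399). Mcm7, part of the replicative helicase, was without overlap at 19.4, 17.8, 18.03 and 19.5 and 36.1, 23.02, 29.7, 46.4 and 29.3 CPM (0.82 ± 0.19, adjusted p = 0.0751; 0.0462 without PBS 4). It was the 1 of 29 members past the threshold without PBS 4 (against 5.81% of all genes called higher). Which cells divided in LLC 1 was not tested. Its macrophage score was also the highest of the tumour libraries, as was the epithelial keratin Krt8, at 0.658, 1.001, 3.502 and 1.099 and 50.7, 6.45, 2.05, 1.11 and 0.852 CPM. Krt5, the basal keratin, was at 0.966 CPM or less in all libraries.

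Skeletal muscle genes had list scores of 4.81, 3.02, -3.12 and -3.24 in PBS and -3.48, 3.41, -3.34, -0.06 and 1.99 in LLC. Ckm, muscle creatine kinase, measured 662, 139, 0.195 and 0 and 0.0483, 253, 0.0488, 10.7 and 59.1 CPM. All 18 members were lower in LLC on average, with a median log2 difference of -1.50, and none passed. Without PBS 1 the median was 0.44. The score mixed high and low libraries within both groups. With that score as a covariate the fit called 50 genes higher (0.369%) and 53 lower (0.391%), all 12 genes among them.

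Schwann cell genes, of the sheath around nerves, were lower: 9 of 11 had a negative difference, 5 did not overlap (against 5.09% of all genes on the lower side), none passed in 9 libraries and 3 passed without PBS 4 (against 3.49%). Mal, a protein of myelin membranes, measured 28.7, 61.6, 37.4 and 31.6 and 12.1, 23.6, 16.2, 12.7 and 13.4 CPM (-1.35 ± 0.27, adjusted p = 0.0634; 0.0206 without PBS 4). PBS 4 lay with the other controls. Summed Schwann cell levels were 968 to 1797 CPM in PBS and 452 to 915 CPM in LLC.

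Fat cell genes were lower in LLC in most lists, and none of them passed in all 9 libraries. Among 22 mature adipocyte genes 18 were lower, by a median of -0.43, with 3 past the threshold without PBS 4 (against 3.49% of all genes). Plin1, perilipin, which coats the lipid droplet (chr7:79720218-79732903), measured 2261, 2183, 2299.8 and 1517 CPM in PBS and 866, 1324, 901, 957 and 1278 CPM in LLC. The groups did not overlap, and PBS 4 was the lowest control. The means were 2065 ± 368 and 1065 ± 218 CPM, with a difference of -0.96 ± 0.21 (adjusted p = 0.0729; 0.0199 without PBS 4; DESeq2 adjusted p = 2.39e-04). Rbp4, the retinol carrier that fat secretes, measured 387, 368, 399.6 and 224 and 87.6, 117, 89.8, 55.98 and 187 CPM (-1.68 ± 0.33, adjusted p = 0.0634; 0.0141). Trarg1, a regulator of glucose transporter traffic, measured 542, 525, 482 and 262 and 205, 276, 179.7, 53.6 and 183 CPM (-1.33 ± 0.40, adjusted p = 0.11; 0.0494). Lep, leptin, the hormone that reports fat stores, measured 636, 486, 923 and 247 and 375, 181, 333, 68.3 and 332 CPM and overlapped between groups (-1.15 ± 0.50, adjusted p = 0.203; 0.0975 without PBS 4). The summed adipocyte list was 51309 to 66996 CPM in PBS and 31048 to 73716 CPM in LLC, so the list as a whole overlapped. Vessel, mast cell and blood cell genes were higher in the same tumour libraries, with the summed ranges given above, and their part in the fat cell differences was not tested.

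In lipolysis 17 of 21 genes were lower, with a median of -0.61, 3 without overlap (against 5.09% of all genes) and 4 past the threshold without PBS 4 (against 3.49%). The list mixes genes that drive lipolysis with genes that restrain it, so these counts give no direction for the pathway. The lipase gene Pnpla2 (log2 difference -0.19, edgeR adjusted p = 0.748) and its activator Abhd5 (0.19, adjusted p = 0.728) overlapped between groups. Of the restraining genes, Npr3 (-1.59) and Ptger3 (-1.33) were lower and passed in neither fit. Prkaca, the catalytic subunit of protein kinase A, which relays the catecholamine signal, measured 248, 240.2, 252 and 174 and 117, 158, 92.6, 126 and 122.8 CPM (-0.89 ± 0.17, adjusted p = 0.0634; 0.0105 without PBS 4). Mgll, which cleaves the last fatty acid from glycerol, measured 1233, 1112, 1141 and 809 and 423, 686, 581, 503 and 820.2 CPM (-0.83 ± 0.22, adjusted p = 0.0915; 0.0375). Adrb1, the beta-1 adrenergic receptor, measured 26.2, 25.97, 8.17 and 5.37 and 2.99, 3.199, 1.71, 0.616 and 6.82 CPM (-2.42 ± 0.67, adjusted p = 0.0986; 0.0355). The receptor and the kinase were thus both low in the tumour libraries, and for Adrb1 and Mgll PBS 4 overlapped the tumour range.

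In lipogenesis 24 of 25 genes were lower, by a median of -0.96, with 4 without overlap (against 5.09% of all genes) and 4 past the threshold without PBS 4 (against 3.49%). Pnpla3, a lipid droplet enzyme that follows carbohydrate feeding, measured 309, 276, 309 and 239.6 CPM in PBS and 107, 151, 61.05, 43.5 and 46.99 CPM in LLC. No tumour library reached the lowest control (-1.79 ± 0.36, adjusted p = 0.0638; 0.0249 without PBS 4). Acss2, which makes acetyl-CoA from acetate, measured 527, 551, 600.4 and 302 and 91.3, 272, 34.7, 90.4 and 105 CPM (-2.06 ± 0.50, adjusted p = 0.0774; 0.0326). Scd2, a fatty acid desaturase, measured 716, 725, 707 and 452 and 321, 295, 144, 75.8 and 82.6 CPM (-1.82 ± 0.45, adjusted p = 0.0786; 0.0389). Both separated the groups, LLC 3 being the lowest for Acss2 and LLC 4 for Scd2.

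Cholesterol synthesis had the most members past the threshold among fat cell lists once PBS 4 was left out. Of 24 genes 21 were lower, by a median of -0.90 (-1.07 without PBS 4), 6 did not overlap (against 5.09% of all genes), none passed in 9 libraries and 9 passed without PBS 4 (against 3.49%). Hmgcs1, which makes HMG-CoA at the head of the pathway, measured 309.98, 235, 326 and 261 CPM in PBS and 131, 172, 129, 105 and 80.1 CPM in LLC. All tumour libraries were below all controls (-1.20 ± 0.21, adjusted p = 0.057; 0.0177 without PBS 4). Pmvk, phosphomevalonate kinase, measured 72.5, 75.2, 81.5 and 47.7 and 27.5, 38.4, 18.9, 33.2 and 31.1 CPM (-1.21 ± 0.22, adjusted p = 0.0587; 0.00651). Mvk, the kinase before it, measured 31.3, 27.2, 25.8 and 20.6 and 17.2, 16.9, 12.2, 14.6 and 14.2 CPM (-0.80 ± 0.15, adjusted p = 0.0634; 0.0101). Lss, lanosterol synthase, measured 38.8, 44.1, 46.6 and 24.1 and 16.5, 24.7, 11.2, 15.2 and 12.1 CPM and overlapped in PBS 4 by a narrow margin (-1.27 ± 0.26, adjusted p = 0.0638; 0.0115).

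The window before Hmgcs1 is shown because its sterol response element is a textbook target of the SREBP factors that drive this pathway. Capitals mark the letters TCACNCCAC, searched on both strands.
Hmgcs1 (GRCm38.p6 chr13:119690101-119690350, plus strand): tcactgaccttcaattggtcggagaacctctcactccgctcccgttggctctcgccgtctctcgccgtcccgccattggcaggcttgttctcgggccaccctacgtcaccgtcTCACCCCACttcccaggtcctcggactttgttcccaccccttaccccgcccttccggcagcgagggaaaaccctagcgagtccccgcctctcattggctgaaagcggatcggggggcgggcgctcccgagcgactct
The match TCACCCCAC lies 137 to 129 bases before the RefSeq start. It is 1 of 20 windows (5%) of the cholesterol list to hold the motif, against 346 of 32851 windows in all (1.05%).

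**Figure D4:**
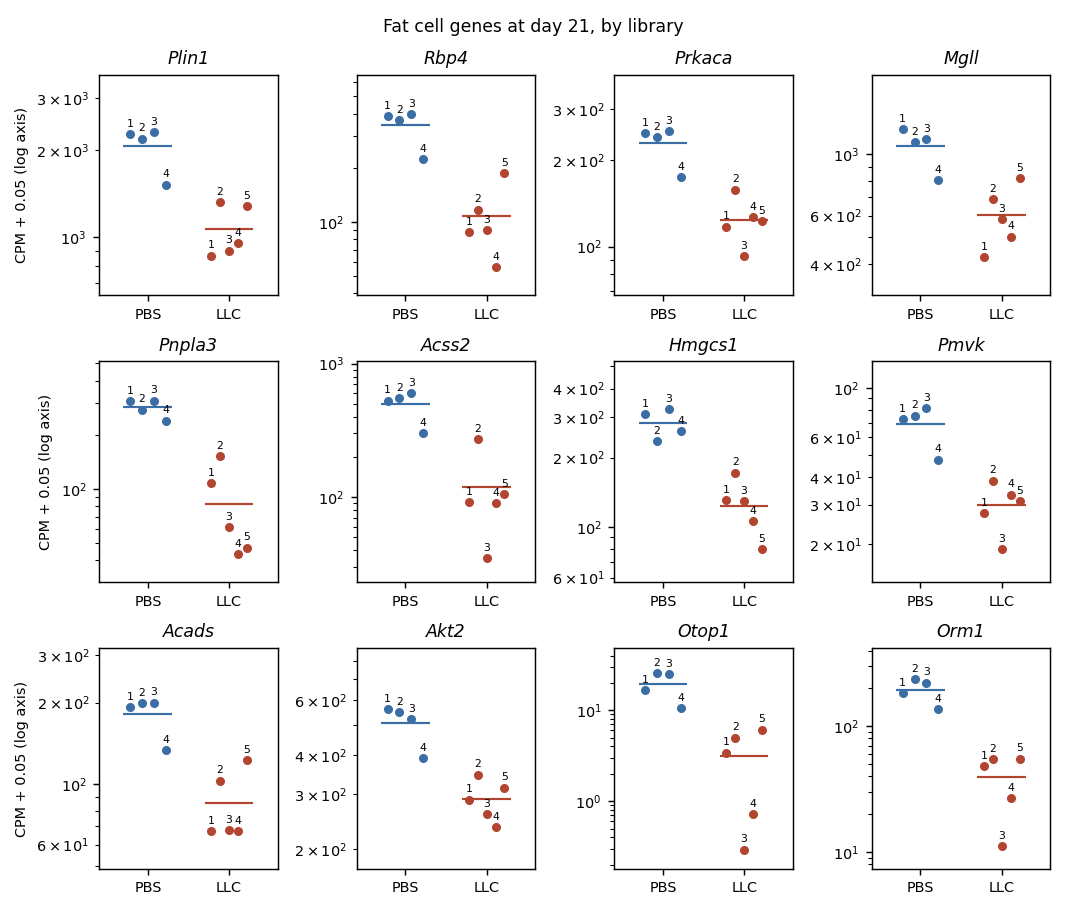
Levels of 12 fat cell genes in CPM + 0.05 (log axis), by group, with each point numbered by its library and lines at the group means. PBS 4 is the lowest control in each gene but Hmgcs1, and all LLC libraries are below it except LLC 5 for Mgll.

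Of 22 fatty acid oxidation genes 21 were lower, by a median of -0.59, with 3 without overlap (against 5.09% of all genes) and 4 past the threshold without PBS 4 (against 3.49%). Acads, the short-chain acyl-CoA dehydrogenase, measured 192, 199, 200.1 and 134 and 67.2, 103, 67.9, 67.1 and 122.5 CPM (-1.08 ± 0.22, adjusted p = 0.0638; 0.0161 without PBS 4). Acaa2, a thiolase, measured 175, 204, 213 and 132 and 64.9, 109, 73.9, 108 and 114 CPM (-0.95 ± 0.21, adjusted p = 0.0728; 0.0181). All 24 nuclear respiratory chain genes tested were lower, by a median of -0.41, 1 passed without PBS 4 (against 3.49% of all genes) and 1 did not overlap (against 5.09%), shares near those over all genes. The 13 mitochondrially encoded genes had a median of -0.27, and none passed in either fit. Of 18 genes that break down branched-chain amino acids 17 were lower, by a median of -0.33, 3 did not overlap (against 5.09% of all genes) and 1 passed without PBS 4 (against 3.49%): Mccc1, a carboxylase of leucine breakdown, measured 236, 216, 229 and 179 and 111, 145, 72.2, 98.2 and 137 CPM (-0.94 ± 0.20, adjusted p = 0.0663; 0.0245). In all 4 lists LLC 1 and LLC 3 had the lowest scores, and LLC 4 lay above every control in the 2 lists of the respiratory chain.

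Insulin signalling genes had no common direction, with 7 of 18 higher and a median of -0.27. Akt2, the kinase through which insulin moves glucose transporters, measured 559.8, 548, 520.3 and 391 and 288, 346, 259, 236 and 315 CPM and did not overlap (-0.80 ± 0.16, adjusted p = 0.0638; 0.0137 without PBS 4). Igf1r, the receptor for insulin-like growth factor 1, was higher at 16.04, 16.3, 18.8 and 20.9 and 26.7, 28.4, 29.4, 36.8 and 21.4 CPM (0.66 ± 0.16, adjusted p = 0.0786; 0.0361). Among 17 secreted fat factors, Inhbb, an activin subunit, measured 70.99, 40.99, 99.8 and 37.4 and 24.001, 24.8, 28.6, 13.1 and 25.3 CPM (-1.43 ± 0.32, adjusted p = 0.0751; 0.0177), and Bmp4, a growth factor of fat progenitors, 1.92, 1.56, 1.62 and 3.73 and 4.73, 4.97, 5.12, 5.98 and 7.47 CPM (1.35 ± 0.32, adjusted p = 0.0751; 0.00798). Both were without overlap, with differences of opposite sign.

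Heat-producing genes were of interest because the series title names Otop1. Otop1 encodes a proton channel (ENSMUSG00000051596, chr5:38275972-38304217). It measured 16.7, 25.6, 24.9 and 10.6 CPM in PBS and 3.38, 4.97, 0.244, 0.678 and 6.09 CPM in LLC, and the groups did not overlap. The means were 19.4 ± 7.16 (SD, n = 4) and 3.07 ± 2.58 CPM (n = 5), and the difference of -2.66 ± 0.74 did not pass in 9 libraries (edgeR adjusted p = 0.099), nor without PBS 4 (0.0527), and did in DESeq2 (0.00618). In the authors' deposited table its log2 value was -2.47 with an FDR of 0.0089. Ucp1, the uncoupling protein of brown and beige fat, measured 0.1197, 4.13, 17.7 and 14.8 and 0.386, 8.51, 0, 0.678 and 0.786 CPM and overlapped, with PBS 1 as low as the tumour libraries and LLC 2 high (adjusted p = 0.362). Of 21 thermogenic genes tested 19 were lower, by a median of -0.85. Without PBS 4, 1 passed higher and 1 lower (against 5.81% and 3.49% of all genes), shares near those over all genes. The lower one was Cox7a1, a cytochrome oxidase subunit of heart, muscle and brown fat, at 5.81, 5.44, 5.77 and 1.22 and 0.773, 1.66, 0.244, 0.678 and 1.57 CPM (-2.21 ± 0.60, adjusted p = 0.0942; 0.0227). Cpt1b, the muscle and brown fat form of the enzyme that admits fatty acids to mitochondria, measured 14.5, 17.6, 27.2 and 7.63 and 1.01, 8.11, 0.731, 4.56 and 2.16 CPM and passed in neither (0.104 and 0.051). Both Cox7a1 and Cpt1b are also made in muscle, whose genes were high in PBS 1 and 2. PBS 3 and PBS 4 had muscle scores of -3.12 and -3.24, with 5.77 and 1.22 CPM for Cox7a1 and 27.2 and 7.63 CPM for Cpt1b. The part of muscle in these differences was not tested.

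Inflammatory genes leaned to the higher side without passing in 9 libraries. Of 19 genes tested 16 were higher, by a median of 0.86. On the higher side 6 did not overlap and on the lower 1 (against 4.47% and 5.09% of all genes). Without PBS 4 the same numbers, 6 and 1, passed (against 5.81% and 3.49% of all genes). Osmr, the oncostatin M receptor, measured 45.97, 49.6, 41.05 and 56.8 and 105, 81.7, 79.8, 86.4 and 116 CPM (0.95 ± 0.15, adjusted p = 0.0526; 0.0081 without PBS 4). Socs3, an inhibitor induced by STAT3, measured 8.92, 8.07, 5.97 and 5.86 and 44.7, 14.9, 18.6, 19.7 and 17.6 CPM (1.68 ± 0.34, adjusted p = 0.0638; 0.0384). Stat3, the factor that carries the signal of interleukin 6 and its relatives, measured 124, 125, 121 and 134 and 193, 173, 162, 208 and 254 CPM (0.65 ± 0.14, adjusted p = 0.0708; 0.0386). None of these 3 overlapped between groups. Orm1, orosomucoid 1, an acute phase protein that the liver makes most, was lower at 184, 238, 222 and 137 and 48.1, 54.4, 11.1, 26.6 and 55.2 CPM (-2.32 ± 0.42, adjusted p = 0.0613; 0.0143). Lcn2, lipocalin 2, measured 0.599, 0.751, 1.43 and 1.34 and 59.9, 12.4, 1.999, 12.8 and 2.82 CPM and was most abundant in LLC 1 (4.12 ± 1.04, adjusted p = 0.0809; 0.0628). The acute phase list thus held members of both signs.

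Glucocorticoid responsive genes had a median of 0.28, and 1 of 17 passed higher without PBS 4 (against 5.81% of all genes), a share near that over all genes. This was Mt2, a metallothionein, at 33.7, 44.9, 13.5 and 44.8 and 294, 144, 53.1, 399 and 142 CPM (2.59 ± 0.59, adjusted p = 0.0751; 0.0417). Clock genes did not pass in either fit. Npas2, a partner of the clock activator, measured 0.419, 0.626, 0.389 and 1.47 and 0.918, 3.599, 14.5, 22.9 and 2.82 CPM, and Dbp, a gene at the opposite phase, 51.3, 76.97, 111 and 43.1 and 46.3, 21.2, 3.998, 1.91 and 18.3 CPM. LLC 3 and LLC 4 had the highest Npas2 and the lowest Dbp. The time of day of sampling is not given in the sources used here. Of 16 immediate early genes 1 passed without PBS 4 (against 5.81% of all genes called higher). This was Klf4, at 21.5, 45.4, 27.6 and 90.1 and 77.5, 125, 118, 146 and 135 CPM (1.38 ± 0.40, adjusted p = 0.104; 0.00726). The immediate early score was 1.29 in PBS 2 and at most 0.29 in the other libraries.

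Interferon and antigen presentation genes had few members past the threshold. Of 23 interferon response genes 14 were higher, with a median of 0.10 and 1 past the threshold without PBS 4 (against 5.81% of all genes). A separate list of 15 interferon gamma genes had 6 higher and 9 lower, with a median of -0.24. On the lower side 1 passed without PBS 4 (against 3.49% of all genes) and 1 did not overlap (against 5.09%), shares near those over all genes. Both were Cxcl9, a chemokine that interferon gamma induces. It was lower at 50.8, 48.8, 86.6 and 42.02 and 22.8, 27.8, 23.6, 16.7 and 30.9 CPM (-1.23 ± 0.24, adjusted p = 0.0634; 0.0143). Of 18 antigen presentation genes 12 were higher and 6 lower, with a median of 0.60, or 0.21 without LLC 3, the library high in B cell genes. None passed in 9 libraries, and without PBS 4 none passed higher and 1 lower, Tap2 (against 5.81% and 3.49% of all genes). Among the higher were genes of class II presentation, the chaperone Cd74 (log2 difference 1.48, adjusted p = 0.183) and the regulator Ciita (2.27, adjusted p = 0.231), both named after their values were seen. Both followed LLC 3. On the 18-library scale Cd74 lay at 2607 CPM in LLC 3, 418 to 617 in the other LLC libraries and 193 to 593 in PBS. For Ciita these values were 110.7, 2.09 to 11.5 and 2.54 to 8.97 CPM. H2-K1 and H2-D1, the class I molecules that present peptides, measured 2231, 2179, 2091 and 2032 and 1157, 1577, 1252, 1611 and 1486 CPM and 2869, 2734, 2655 and 2682 and 1634, 2082, 1615, 1637 and 2044 CPM. Neither overlapped between groups, and neither passed in edgeR (adjusted p = 0.101 and 0.101; 0.0782 and 0.0828 without PBS 4), while DESeq2 gave 7.03e-04 and 1.35e-04. Tap2, which loads peptides for them, measured 116, 104, 112 and 88.4 and 76.4, 80.5, 84.1, 76.9 and 82.7 CPM (-0.39 ± 0.10, adjusted p = 0.0868; 0.0227). H2-K1 and H2-D1 had PBS 4 within or next to the values of the other controls.

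No member of the heat shock and the autophagy lists passed in either fit, and their medians were 0.03 and -0.07, the latter above 0 on the TPM scale. The amino acid and unfolded protein stress list had a median of 0.32 and 1 of 17 members past the threshold without PBS 4. The lysosome list had a median of -0.05, or 0.10 on the TPM scale, and 1 of 19 members past it. Both members were higher, against 5.81% of all genes, so these shares were near that over all genes. Of 11 serine and one-carbon genes, Slc1a5, a glutamine transporter, measured 2418, 2165, 2125 and 1393 and 932, 1232, 872, 898 and 1434 CPM (-0.92 ± 0.23, adjusted p = 0.0812; 0.0252 without PBS 4). Of 12 smooth muscle and pericyte genes 2 passed higher without PBS 4 (against 5.81% of all genes), among them Tagln, transgelin, at 31.1, 50.4, 39.2 and 71.8 and 64.6, 70.5, 73.6, 63.3 and 92.3 CPM (adjusted p = 0.169; 0.0287).

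The remaining called genes lay outside the cell type lists. Id2, an inhibitor of helix-loop-helix transcription factors (chr12:25093799-25097140), measured 9.94, 10.1, 10.1 and 11.2 CPM in PBS and 20.5, 18.7, 22.1, 19.1 and 19.7 CPM in LLC. It rose by 0.96 ± 0.11 on the log2 scale (adjusted p = 0.0169), and PBS 4 was only slightly above the other controls. Sema3f, a secreted semaphorin that repels growing axons and vessels (chr9:107681500-107710475), measured 11.2, 8.14, 11.7 and 17.4 and 34.7, 29.5, 33.1, 35.8 and 34.5 CPM, a rise of 1.47 ± 0.20 (adjusted p = 0.0443). PBS 4 was the highest control, still below all tumour libraries.

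H2bc4, a histone H2B gene (chr13:23684199-23692908), measured 82.5, 89.7, 87.4 and 87.5 CPM in PBS and 53.6, 48.3, 46.5, 40.6 and 45.6 CPM in LLC. PBS 4 matched the other controls, and the gene's log2 difference was -0.89 ± 0.10 (adjusted p = 0.0167), a fall. Of 18 histone symbols listed 14 were in the table and 8 were tested: 6 were lower, 1 fell, 4 passed lower without PBS 4 (against 3.49% of all genes) and 5 did not overlap on the lower side (against 5.09%). H1f2, a linker histone, measured 78.05, 62.4, 53.5 and 63.9 and 40.1, 41.01, 34.5, 34.3 and 32.04 CPM (-0.82 ± 0.13, adjusted p = 0.0526; 0.0142), and H4c8, a histone H4 gene, 13.8, 11.9, 8.69 and 6.596 and 3.33, 2.11, 4.44, 2.34 and 4.72 CPM (-1.59 ± 0.32, adjusted p = 0.0634; 0.0143). Messages of replication-dependent histones mostly lack a poly(A) tail and are poorly captured by the oligo(dT) step of these libraries, and reads of near-identical histone genes can be exchanged. LLC 1, with the highest cell cycle score, had the highest H2bc4 value in LLC.

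Trim67, a ubiquitin ligase known from neurons (chr8:124793092-124834713), measured 16.9, 13.7, 19.6 and 14.4 and 7.15, 6.51, 7.36, 5.12 and 6.95 CPM, a fall with a log2 difference of -1.29 ± 0.17 (adjusted p = 0.036). Slc18b1, a vesicular polyamine transporter (chr10:23796986-23827968), measured 58.4, 58.3, 54.1 and 43.8 and 28.6, 34.1, 30.5, 29.3 and 26.5 CPM (-0.85 ± 0.12, adjusted p = 0.0489). Every tumour library lay below every control for both. Slc18b1, Alas2 and Selp were closest to the threshold and missed it under several other settings.

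Genes with a proper symbol were ranked by their log2 difference without PBS 4. To be ranked they had to pass in that fit, reach 5 CPM in a group and not overlap in its 8 libraries. The 12 largest positive differences were those of the mast cell proteases, Mmrn1 and 7 others. Mrgprg, an orphan receptor of the Mas-related family, measured 0, 0.0626, 0.0648 and 0.122 CPM in PBS and 0.966, 15.2, 76.5, 81.8 and 30.5 CPM in LLC. It was near 0 in all controls and spread widely in LLC, with 0.966 CPM in LLC 1, and missed the threshold in 9 libraries (adjusted p = 0.0526; 0.0194 without PBS 4). Cxcl13, the chemokine that draws B cells, measured 2.15, 6.07, 1.95 and 21.7 and 48.4, 45.8, 154, 306 and 14.6 CPM. Its highest value was in LLC 4, not in LLC 3, and it passed without PBS 4 (0.0282; 0.099 with it). Lyz1, a lysozyme, measured 3.47, 4.44, 2.59 and 12.03 and 31.5, 36.04, 190.4, 91.2 and 35.6 CPM and did not overlap (3.77 ± 0.74, adjusted p = 0.0634; 0.0125). Ackr2, a scavenger of chemokines on lymphatic and other cells, measured 0.718, 0.814, 0.454 and 7.88 and 5.89, 11.4, 32.8, 37.5 and 22.9 CPM, and Sema3e, another semaphorin, 0.0599, 1.19, 0.584 and 11.7 and 10.04, 12.5, 20.8, 36.1 and 24.3 CPM. Dmkn, an epidermal secreted protein, measured 0, 0.0626, 0.195 and 4.03 and 4.105, 7.83, 21.6, 20.8 and 18.02 CPM, and Islr2 0.419, 1.06, 1.297 and 23.02 and 17.1, 17.02, 31.2, 29.2 and 18.2 CPM. In these last 4 genes PBS 4 reached or neared the tumour range. Their adjusted p were 0.108, 0.177, 0.12 and 0.294 with PBS 4 and 0.00565, 0.00726, 0.00353 and 8.89e-04 without it.

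The 12 largest negative differences under the same limits were led by Hephl1 and Lctl. Hephl1, a copper-dependent ferroxidase, measured 10.2, 17.9, 23.7 and 6.901 and 2.32, 4.57, 0.634, 0.247 and 1.57 CPM (-2.97 ± 0.71, adjusted p = 0.0759; 0.0297 without PBS 4). Lctl, a relative of lactase, measured 40.04, 57.9, 49.6 and 20.6 and 7.49, 5.998, 2.93, 0.678 and 10.4 CPM (-2.93 ± 0.61, adjusted p = 0.0638; 0.0189). Both separated the groups in all 9 libraries. Adrb1, Cox7a1, Orm1 and Acss2, given above, were also among the 12. Otop1 (-2.87 without PBS 4) was not ranked because it did not pass in that fit. Mtarc1, a mitochondrial reductase, measured 13.6, 19.1, 15.1 and 8.24 and 1.98, 5.94, 1.27, 4.38 and 2.75 CPM, and Tmem45b 236, 185, 271 and 177 and 55.005, 61.4, 13.8, 40.5 and 88.99 CPM (adjusted p = 0.0638 and 0.0638; 0.0189 and 0.0253). The remaining 4 were Mettl7b, the potassium channel gene Kcnh2, the neurotensin receptor gene Ntsr2 and the DNA polymerase gene Poln, with log2 differences of -2.24 ± 0.48, -2.10 ± 0.50, -2.08 ± 0.49 and -2.05 ± 0.41 without PBS 4.

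Levels at day 7 separate the genes into those where the tumour libraries of day 21 left the earlier range, those where the controls did and those where both did. On the 18-library scale, Pnpla3 lay at 234 to 284 CPM in day 7 PBS, 181 to 311 in day 7 LLC, 241 to 311 in day 21 PBS and 44.6 to 155 in day 21 LLC. Orm1 lay at 138 to 193, 126 to 189.6, 137 to 239.7 and 11.3 to 56.1 CPM. In both, the day 21 tumour group alone was apart. The day 21 LLC libraries also lay outside the other ranges for Plvap (78.6 to 103, 93.02 to 127, 23.1 to 86.4 and 150.1 to 225 CPM), Selp (5.91 to 9.56, 9.59 to 22.3, 2.23 to 9.401 and 25.7 to 44.6) and Trim67 (18.9 to 24.2, 15.7 to 28.1, 13.8 to 19.7 and 5.26 to 7.49). For Plvap and Selp, however, PBS 1 to 3 were also below every day 7 library. H2bc4 was split on both sides, with day 21 PBS above day 7 PBS (82.9996 to 90.2 against 62.8 to 72.7 CPM) and day 21 LLC below it (41.7 to 54.5 CPM). For Cd163 (115 to 177, 95.3 to 207, 19.04 to 97.6 and 92.6 to 149 CPM) and Id2 (15.5 to 19.3, 14.2 to 19.6, 9.999 to 11.2 and 19.2 to 22.5) the day 21 controls were lower than both day 7 groups, apart from PBS 4 for Cd163. Otop1 lay at 5.61 to 9.56, 13.2 to 19.2, 10.6 to 25.7 and 0.248 to 6.202 CPM, so that its day 21 controls were above the day 7 controls. These are ranges of 4 or 5 libraries, given without a test.

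**Figure D5:**
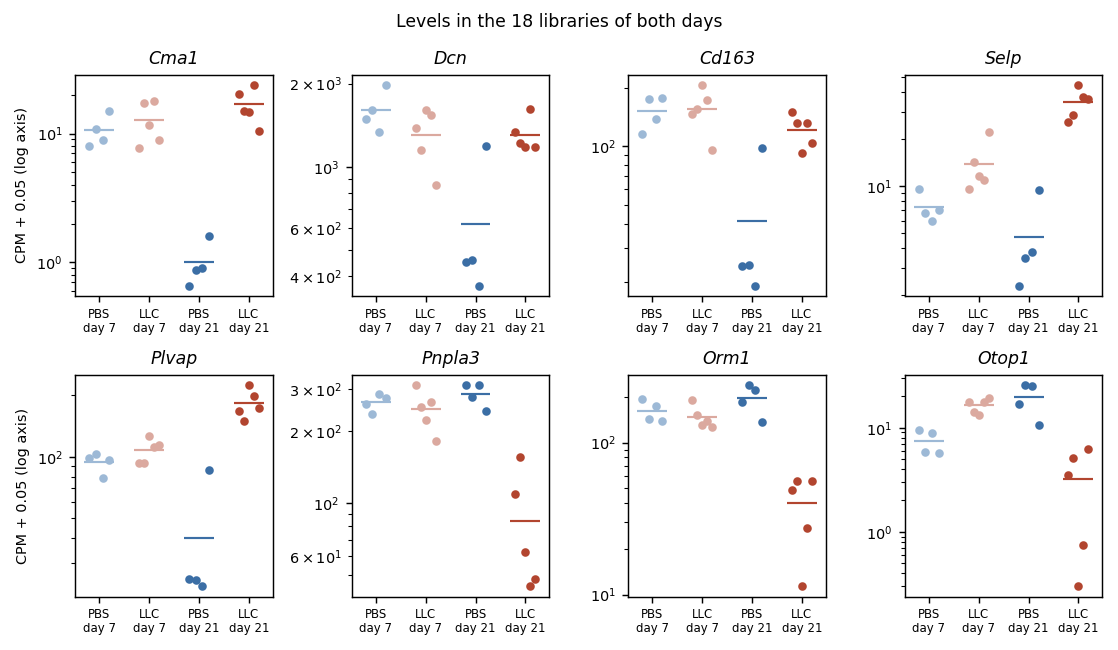
Levels of 8 genes in CPM + 0.05 (log axis) in the 18 libraries, in 4 groups by day and treatment, with lines at the group means. For Cma1, Dcn and Cd163 the day 21 PBS libraries sit below the others, apart from 1 library (PBS 4) for Dcn and Cd163, and for Selp, Plvap, Pnpla3 and Orm1 the day 21 LLC libraries lie outside the other groups.

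The authors' deposited table for this comparison lists 872 genes higher and 287 lower in LLC at an FDR under 0.05. It includes all 12 genes called here, in the same direction. For Cma1 the authors' deposited table gives a log2 value of 4.27, for Selp 2.93 and for Plin1 -0.79.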

How the data were processed

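RNA of 9 day 21 libraries was sequenced after poly(A) capture with the NEBNext Ultra kit, per the labels' protocols. These describe no step that marks the strand, so reads of a gene and an overlapping or antisense partner cannot be told apart. Per the submitters' processing notes, reads were trimmed with fastp 0.23.0 and quantified with RSEM (no version), with the builds mm10 and GRCm38. The sources used here do not give the aligner or the annotation release. The deposited estimated count columns (RSEM, apparently rounded by the authors: 100% whole) were the values tested. TPM deposited by the authors were used in 2 alternatives. The log2 ratio, p-value and FDR deposited by the authors were only set beside the results. RSEM divides reads among near-identical genes, which makes globin, mast cell protease and histone values less certain.

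The test was edgeR 4.0.16 (R 4.3.3) with TMM scaling, the filterByExpr filter, a quasi-likelihood fit, two-sided p-values and Benjamini-Hochberg adjustment over 13564 genes at 0.05. Genes near 0 in PBS can pass this filter through their LLC counts alone, so a shared higher direction among such list members is no separate evidence. SE is the size of the log2 difference over the square root of F. Alternatives used DESeq2 1.42.0, limma 3.58.1, other filters and fits without single libraries. The fitting step was run on simulated counts with a capped spread and no library standing apart. That run therefore does not show how the fit behaves on these libraries. The lowest chi-square per gene between 2 replicates was 20.3 over 16 pairs, so all counted as separate samples. Coordinates come from GENCODE (GRCm38), which located 21806 IDs, and sequences from RefSeq (GRCm38.p6).

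The comparison and the 40 gene lists were chosen with earlier results of these data known. The naming rule took Otop1 (the series title), Ucp1, Adipoq and Lep, every gene past the threshold, the 5 members of each list with the smallest p, the 12 largest differences of each sign among genes that passed without PBS 4, had 5 CPM or more, a proper symbol (no Gm or Rik name) and no overlap between the groups of those 8 libraries, and defining markers of each cell type. Not all list members under the rule are printed. A list score used log2 CPM with a prior count of 2. Of the listed symbols 7 were not found in the table.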

Additional observations from a re-analysis of the deposited data

Results flagged for a closer look

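Named genes and list scores (the mean of the members' log2 CPM relative to their mean over the 9 libraries) were searched within each group for a single library whose gap to the next was large beside the range of the group, genes on the scale of log2(CPM + 0.5). There were 30 such cases in 294 tests. Chance alone gives about 1 in 20 for genes picked without regard to their values, but many of these genes were named for small p-values or for the fit without PBS 4, so the number of cases is not a test of PBS 4. Of the list scores, PBS 4 was high for mast cell genes (score -0.49), lipid-associated macrophage genes (1.31) and progenitor and fibroblast genes (0.59). It was low for mature adipocyte genes (-0.017) and for genes of branched-chain amino acid breakdown (-0.062), and LLC 3 was high for B cell genes (5.46). LLC 1 stood above the rest of its group for Socs3 (44.7 CPM). LLC 3 stood above the rest of its group for Cd74 (2563 CPM), Cd79a (325 CPM) and Icam1 (54.9 CPM). LLC 3 stood below the rest of its group for Ntsr2 (0.341 CPM). LLC 4 stood above the rest of its group for Hdc (12.8 CPM). LLC 4 stood below the rest of its group for Inhbb (13.1 CPM) and Trarg1 (53.6 CPM). PBS 4 stood above the rest of its group for Ackr2 (7.88 CPM), Adgre1 (75.4 CPM), Ccr2 (33.6 CPM), Cd163 (96.98 CPM), Dmkn (4.03 CPM), Id2 (11.2 CPM) and Plvap (85.9 CPM). PBS 4 stood below the rest of its group for Acads (134 CPM), Cox7a1 (1.22 CPM), Plin1 (1517 CPM), Prkaca (174 CPM), Rbp4 (224 CPM), Scd2 (452 CPM) and Trarg1 (262 CPM). The gap is relative to the group's own range, so it can be small in size: the 4 controls lie between 9.94 and 11.2 CPM for Id2. PBS 1 also met the criterion for Krt5 (0.0599 CPM, the others at 0) and Mmrn1 (0 CPM), where all controls are at or near 0 and a few reads decide it, so neither shows a library apart.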

How the results depend on the processing

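Against 9 genes higher and 3 lower in all 9 libraries, DESeq2 called 786 and 738, the muscle score as a covariate 50 and 53, limma on log2(TPM + 1) 36 and 1 and on log2(TPM + 0.1) 58 and 4. Leaving out PBS 4, LLC 1 and LLC 3 gave 725 and 237, and all 18 libraries in 1 fit 1466 and 1194. DESeq2 size factors, a minimum mean of 1 CPM and a robust fit each gave 7 and 2, and no filter 9 and 2. Leaving out 1 library at a time (leave-one-out) gave 0 to 798 higher and 0 to 479 lower: 0 and 0 without PBS 1, 2 and 0 without PBS 2 or PBS 3, 798 and 479 without PBS 4, 21 and 3 without LLC 1, 31 and 64 without LLC 2, 5 and 0 without LLC 3, 5 and 1 without LLC 4, and 6 and 3 without LLC 5. A replicate block, fitted without LLC 5, which has no partner, gave 2 and 0, with 1 of the 12 genes among them. The numbers do not pair the samples: the correlations of same-numbered deviations were -0.28, 0.33, 0.08 and -0.16. Apart from the fits with fewer libraries, the cause of these moves was not tested.

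Cma1 passed in 19 of 20 alternatives and missed without PBS 1 (adjusted p = 0.053), while Slc18b1 missed in 14. None of the 12 genes changed direction in the 20 alternatives. Among the other genes named, 4 did (log2 differences). Adipoq measured 0.0058 without LLC 1 and 0.052 without PBS 4, LLC 1 and LLC 3, with leave-one-out values of -0.35 to 0.0058. Cd79a measured -0.34 without those 3 libraries. Ckm measured 0.21 with the replicate block, 0.82 with the muscle score and 0.48 without PBS 1, with leave-one-out values of -3.53 to 0.48. Mki67 measured -0.55 without LLC 1 and -0.79 without the 3 libraries, with leave-one-out values of -0.55 to 1.94. At 14934699 to 17844344 counts per library, genes near 0 such as Mmrn1 in PBS have no measurable fold.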
